A study of Homo sapiens with 6 samples.

Results

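The loci described here were stretches of RNA with no gene name that lay just before the 5′ end of a named gene in HEK293 cells, a human embryonic kidney cell line. A locus was included when it was longer than 300 nt, overlapped no named locus, lay within 10 kb before the 5′ end of its nearest named locus and nearer to that than to any 3′ end, and had a value above 1 in at least 1 of the authors' 2 pooled columns. Of 117001 loci in the merged table, 92971 had no name and 8352 met this rule, in 8296 distinct intervals before 4848 genes. Distances run to the edge of the named locus, which can lie well before the annotated start of the gene. Before MAP3K2, FLYWCH2 and WARS2 they were 1557, 1500 and 3718 bases. The annotated starts of these genes lay 45825, 16262 and 10411 bases away. RNA depleted of ribosomal RNA was sequenced from 3 control libraries of untreated cells and 3 libraries of cells heat shocked in a tube at 45 °C for 30 minutes. Cells of both groups were cultured in an incubator at 37 °C, and the paper places its comparison at 30 minutes after heat shock. Each treatment was done 3 times, though no label says that the cultures were grown apart. The p-values therefore measure the spread between these libraries, which may be technical. These pooled levels, made from the same 6 libraries, were the measured values the loci were selected on. All values are FPKM, a read density scaled by transcript length and library size. The study sequenced no other line, and the tube and handling of the heat shocked cells were part of that group.

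Promoters of human genes are often transcribed in both directions, and the RNA made upstream, on the strand opposite to the gene, is called a promoter upstream transcript or, when longer and spliced, a divergent long non-coding RNA. Most such RNA is short-lived: it ends early, at poly(A) signals close to its start, and is degraded in the nucleus by the RNA exosome. RNA upstream of a gene can also come from an unannotated first exon, from an enhancer, from read-through of a gene further upstream, or from a copy of another gene that shares reads with its source. Heat shock factors bind the promoters of chaperone genes, which makes the regions before those genes of interest in heat shocked cells.

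The first sequence is the 300 bases nearest to the gene of a locus that matched another gene, read from GRCh37 along the strand of the gene it precedes, with the matched bases in capitals. It is shown because reads of such a locus and its source cannot be told apart in these files. The locus before SLC13A2 (window chr17:26795296-26795595, plus strand) matched the ribosomal protein mRNA of RPS7 and ran into a stretch of A after the match.
SLC13A2: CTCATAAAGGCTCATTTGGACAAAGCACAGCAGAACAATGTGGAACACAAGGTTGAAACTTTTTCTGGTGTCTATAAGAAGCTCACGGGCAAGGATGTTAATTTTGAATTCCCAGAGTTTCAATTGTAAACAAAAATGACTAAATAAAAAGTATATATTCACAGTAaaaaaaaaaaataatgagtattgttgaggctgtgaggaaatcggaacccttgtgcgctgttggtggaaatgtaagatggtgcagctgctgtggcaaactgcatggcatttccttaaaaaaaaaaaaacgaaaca

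The next 3 sequences are the same window of loci that ended close to the annotated start of their gene. These loci matched no protein-coding or small RNA transcript of a gene elsewhere. Every CG dinucleotide is in capitals, since CG-rich sequence is typical of human promoters. The windows lay at chr6:117996226-117996525 on the plus strand for NUS1, at chr2:945809-946108 on the plus strand for SNTG2 and at chr1:169455343-169455642 on the minus strand for SLC19A2. They held 19, 21 and 21 CG dinucleotides, against 4 in the window before SLC13A2.
NUS1: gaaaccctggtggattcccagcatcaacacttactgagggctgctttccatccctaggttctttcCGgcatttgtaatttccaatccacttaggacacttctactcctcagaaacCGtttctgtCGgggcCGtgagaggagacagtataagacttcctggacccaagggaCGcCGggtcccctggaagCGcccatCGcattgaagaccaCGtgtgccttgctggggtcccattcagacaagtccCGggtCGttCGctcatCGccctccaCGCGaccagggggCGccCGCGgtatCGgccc
SNTG2: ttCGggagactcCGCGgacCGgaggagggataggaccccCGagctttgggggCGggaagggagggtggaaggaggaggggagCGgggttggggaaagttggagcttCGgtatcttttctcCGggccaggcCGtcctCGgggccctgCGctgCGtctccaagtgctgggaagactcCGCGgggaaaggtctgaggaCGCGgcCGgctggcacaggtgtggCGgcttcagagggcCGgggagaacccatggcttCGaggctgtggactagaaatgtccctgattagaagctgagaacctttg
SLC19A2: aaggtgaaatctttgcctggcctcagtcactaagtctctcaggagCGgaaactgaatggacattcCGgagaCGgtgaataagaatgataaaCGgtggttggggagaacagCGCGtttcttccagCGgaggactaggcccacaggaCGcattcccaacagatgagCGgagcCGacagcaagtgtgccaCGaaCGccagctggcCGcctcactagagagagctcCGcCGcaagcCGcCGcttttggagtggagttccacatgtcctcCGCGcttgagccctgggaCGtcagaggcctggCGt

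The loci crowded towards the genes. In the first 250 bases before a named locus there were 1389 intervals, or 5556 per kb of distance, against 495 per kb beyond 5000 bases. Unnamed loci after the 3′ end of genes, chosen with the same length and level, were at 1876 per kb in the first 250 bases and 458 per kb beyond 5000 bases. The median distance was 2522 bases and the median length 958 nt, with 535 loci longer than 10000 nt and the longest at 140154 nt. The loci within 250 bases had a median length of 2616 nt, and those beyond 5000 bases one of 808 nt. Of the genes they preceded, 2131 had more than 1 interval, and TMEM181 had the most, 7 of them. All 7 were listed in none of heat shock replicates 1 and 2 or control replicate 3.

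**Figure D1:**
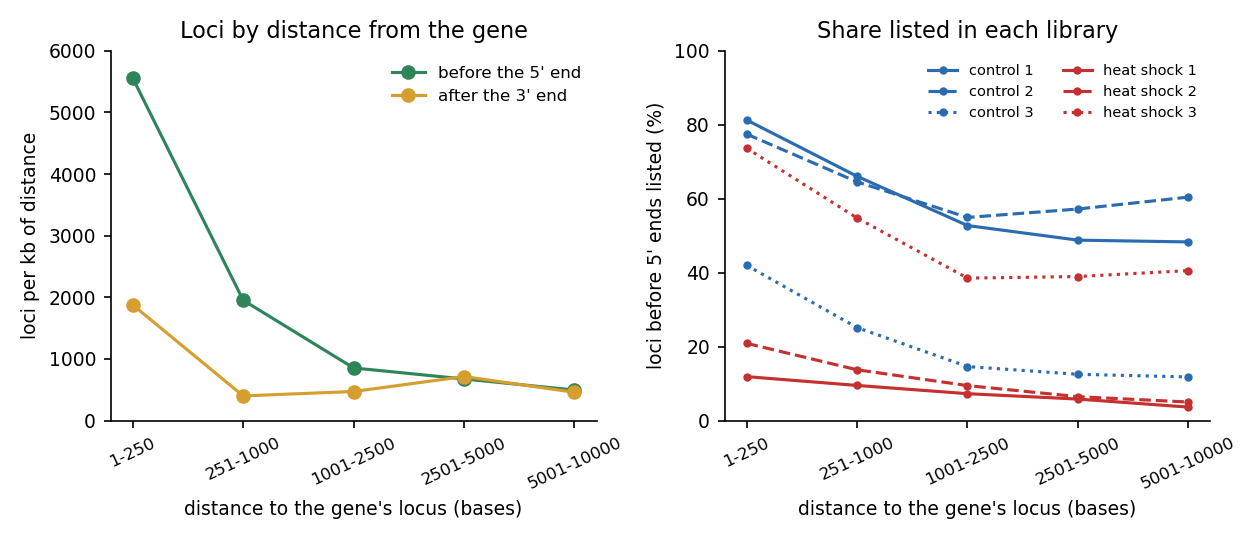
The left panel plots the number of unnamed loci per kb of distance before the 5′ end and after the 3′ end of genes, and the right panel the percent of the loci before 5′ ends that had an FPKM above 0 in each library, both against distance in bases. The density before 5′ ends fell from 5556 to 495 per kb, and the share listed was highest within 250 bases in each of the 6 libraries.

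The sequence of the loci changed with distance in the same way. In the 300 bases nearest to the gene the median GC content was 57.0% for rows within 250 bases and 47.0% for those beyond 5000 bases, against 58.7% in RefSeq promoters (GRCh38, 250 bases before to 50 after the start) and 47.0% in unnamed loci over 10 kb from any named locus. The ratio of observed to expected CG dinucleotides had a median of 0.511 within 250 bases, 0.225 beyond 5000 bases, 0.579 in promoters and 0.207 far from genes. The GC box core GGGCGG, searched on both strands, was found in 36.2% of the windows within 250 bases, 8.24% beyond 5000 bases, 45.0% of promoters and 6.33% of far windows. The poly(A) signal AATAAA, also on both strands, was in 17.9% within 250 bases, 31.6% beyond 5000 bases and 17.4% of promoters. A heat shock element was found in 40 windows, 0.479% of all, against 0.490% of promoters and 0.516% of far windows. These shares describe letters in a window and not binding.

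Of the 8296 intervals, 6343 (76.5%) overlapped no exon of GENCODE release 44 lifted to GRCh37, 1013 overlapped an exon of a long non-coding RNA, 546 of a protein-coding gene, 248 of a pseudogene and 113 of a small RNA gene. Among the protein-coding overlaps 324 were exons of the same gene, in transcripts that begin further upstream than the authors' annotation had them. Genes named as antisense or divergent transcripts accounted for 283 intervals. A 3′ end of some named locus lay within 10 kb of 14.2% of them, and whether RNA of those genes ran on into the loci was not tested.

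Strand was known for few loci. Cufflinks gives a strand to spliced transcripts, and 7894 intervals (95.2%) were overlapped by no transcript with a strand in any library. Transcripts spliced outside annotated genes overlapped 108 intervals, of which 72 (66.7%) ran on the strand opposite to the gene, 30 on the same strand and 6 on both. The 72 divergent ones lay at a median of 208 bases from the gene, 55 of them within 1 kb, and 39 overlapped exons of long non-coding RNA genes in GENCODE. The 30 on the same strand had a median distance of 620 bases. Transcripts that Cufflinks had grouped with an annotated gene overlapped 298 intervals, 269 of them on the strand of the gene alone, and 7 of the 298 were also among the 108.

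Which loci were seen depended strongly on the library. A locus was listed, meaning above 0 FPKM, in 4790 intervals in control replicate 1, 5185 in control replicate 2 and 1641 in control replicate 3, and in 585, 845 and 3979 intervals in heat shock replicates 1, 2 and 3. Heat shock replicate 3 thus sat with control replicates 1 and 2, and control replicate 3 nearer to the other heat shock libraries. The number of transcripts without a strand assembled anywhere in the genome differed in nearly the same order, at 141632, 194489 and 45600 in the control and 17304, 30334 and 151889 in the heat shock libraries. Relative depth, judged from the ratio of coverage to FPKM, was 2.03, 1.82 and 1 in the control libraries. In the heat shock libraries it was 1.24, 1.31 and 1.56, so control replicates 1 and 2 and heat shock replicate 3 were also the deepest. The part of transcripts without a strand, or of depth, in the listing of these loci was not tested. Of 7652 intervals listed at all, 5579 (72.9%) were listed only among control replicates 1 and 2 and heat shock replicate 3, and 272 only among the other 3 libraries. Only 212 intervals (2.56%) were listed in all 6 libraries, while 3359 (40.5%) were listed in 1 and 644 in none.

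**Figure D2:**
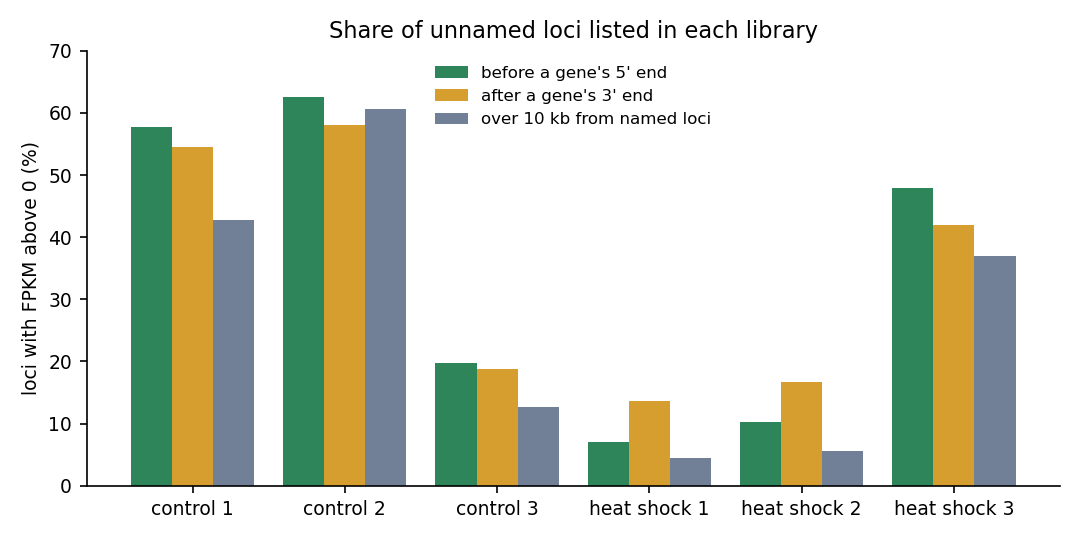
Bars give the percent of unnamed loci with an FPKM above 0 in each library, for loci before 5′ ends, loci after 3′ ends and loci over 10 kb from named loci. For loci before 5′ ends the share was 57.7, 62.5 and 19.8% in the control libraries and 7.05, 10.2 and 48.0% in the heat shock libraries.

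The other unnamed loci followed the same libraries. Loci after 3′ ends were listed in 54.6, 58.1 and 18.7% of cases in the control and in 13.7, 16.7 and 41.9% in the heat shock libraries. In heat shock replicates 1 and 2 they were thus listed more often than loci before 5′ ends, and in the other 4 libraries less often; this difference between the 2 sides was not tested. In the authors' pooled columns 4868 of the loci were above 1 in the control column alone, 1078 in the heat shock column alone and 2406 in both. The rule used these columns, so the split is a description of how the members were chosen.

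The loci listed everywhere were close to genes and often annotated since. The 212 intervals present in all 6 libraries lay at a median of 308 bases from the gene, and those present in 1 library at 3532 bases. The 212 made up 6.84% of the intervals within 250 bases and 0.808% of those beyond 5000 bases. The median length at these distances was 2616 and 808 nt. Any overlapping transcript made a locus listed, and the part of length in this was not tested. Of the intervals on exons of long non-coding RNA genes 8.88% were listed in all 6 libraries, of those on pseudogenes 8.87%, and of those on no exon 0.977%. The neighbouring gene had a mean of at least 1 FPKM for 75.8% of all intervals and for 83.3% of those within 250 bases, against 55.1% of all 23813 genes.

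The highest loci listed in every library were mostly copies of ribosomal protein genes. The locus before LINC00273, a long non-coding RNA gene, spanned chr16:33962918-33964296, 415 bases from the gene. It matched no protein-coding or small RNA transcript of a gene elsewhere, and matches to other kinds were not kept. It had 310, 88.7 and 367 FPKM in the control and 576, 670 and 129 FPKM in the heat shock libraries, 255 ± 147 against 458 ± 289 (SD, n = 3), while LINC00273 itself was between 0.350 and 1.03 FPKM in all 6. The groups overlapped, and the log2 fold change of 0.77 ± 0.98 (SE) turned to -0.11 when the libraries were scaled by their abundant genes. The locus before RNF169, a ubiquitin ligase gene, spanned chr11:74456352-74456913 and held a pseudogene that matched RPS12 at 97.7% over 175 bases. It had 49.1, 82.7 and 40.8 FPKM in the control and 551, 510 and 32.0 FPKM in the heat shock libraries. As deposited, heat shock replicates 1 and 2 were far above all controls and replicate 3 was below them (log2 fold change 1.91 ± 1.18). Scaled by abundant genes, the values were 51.8, 188 and 42.2 in the control and 256, 218 and 65.1 in the heat shock libraries. The log2 fold change was then 1.04.

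The locus before SLC13A2, a sodium and dicarboxylate transporter gene, held RPS7P1 (98.9% over 262 bases) at chr17:26795200-26795595. Its values were 17.6, 9.70 and 64.6 FPKM in the control and 161, 353 and 39.5 FPKM in the heat shock libraries, again with replicate 3 inside the control range (log2 fold change 2.49 ± 1.09, limma adjusted p = 0.693). For the loci before RNF169 and SLC13A2 the sign turned, to -2.10 and -2.77, when only transcripts that covered 50% of the locus were counted. Before UBR1, a ubiquitin ligase of the N-degron pathway, RPS3AP47 (98.3% to RPS3A over 231 bases) had 29.5, 88.9 and 156 FPKM against 328, 160 and 21.2 FPKM. Before METAP2, a methionine aminopeptidase gene, RPL29P26 at chr12:95860599-95861304 had 20.1, 45.4 and 26.6 against 147, 153 and 9.65 FPKM. Before CYBRD1, a ferric reductase gene, RPS15P4 at chr2:172373447-172374244, with a spliced transcript on the strand of the gene, had 44.8, 30.9 and 108 against 91.9, 47.4 and 17.7 FPKM. As deposited, the heat shock and control libraries overlapped in all of these. Scaled by abundant genes, the locus before SLC13A2 had 18.6, 22.1 and 66.8 in the control and 74.9, 151 and 80.2 in the heat shock libraries. The groups then did not overlap there, with a log2 fold change of 1.64 (limma adjusted p = 0.848). At the other copies named here they still overlapped after this scaling. Reads of such copies and of the ribosomal protein mRNAs can be exchanged, and the source genes were not separated from them here.

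Other loci with spliced transcripts had lower levels. Before SNTG2, a syntrophin gene, a divergent spliced transcript lay at chr2:944885-946108 on SNTG2-AS1 in GENCODE, 446 bases from the gene. It had 5.40, 2.62 and 5.86 FPKM in the control and 47.0, 19.2 and 2.84 FPKM in the heat shock libraries (log2 fold change 1.52 ± 0.90, adjusted p = 0.693 by limma), and SNTG2 was at most 1.93 FPKM. With transcripts covering 50% of the locus alone the change was -1.04. Before NUS1, a subunit of the enzyme that makes dolichol, the locus with a divergent spliced transcript lay at chr6:117995183-117996525, its near edge 92 bases from the gene. It had 5.35, 2.32 and 12.2 FPKM in the control, 7.24 and 13.7 FPKM in heat shock replicates 1 and 2, and was listed at 0 in replicate 3. NUS1 followed a like order at 5.56, 2.31 and 5.62 against 11.7, 12.7 and 2.61 FPKM. The locus before FOXN3, a forkhead gene, was 92897 nt long, at chr14:90086366-90179262, and held RN7SKP255, a copy of the 7SK RNA gene. Its values of 14.0, 4.48 and 9.83 against 11.8, 22.2 and 5.53 FPKM overlapped between the groups.

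Across all loci, no change after heat shock passed the test. Genes and unnamed loci that averaged 1 FPKM or more went into 1 limma fit on log2(FPKM + 1), and a call needed an adjusted p under 0.05 together with over 2-fold change. Of 647 loci before 5′ ends that reached this level, 0 were called higher and 0 lower, where 2 of all 16268 features (0.0123%) were called higher and 0 (0%) lower. At an unadjusted p under 0.05, limma gave 34 of the 647 higher (5.26%; 2.7% of all features) and 3 lower (0.464%; 0.897% of all features). The heat shock libraries lay wholly above the controls at 15 loci (2.32%; 3.41% of all features) and wholly below at 9 (1.39%; 1.97% of all features). The other 7649 intervals were under the minimum and were not tested, and a locus that passed it only through the group where it was high had to differ, so these counts describe the tested loci and not all members. Of the 34, 20 were listed at 0 in all 3 controls, all were listed in both heat shock replicates 1 and 2, and 16 were listed in heat shock replicate 3.

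Heat shock replicate 3 decided these counts. Without it 39 of the 647 loci were called higher (6.03%; 1.76% of all features) and 7 lower (1.08%; 0.295% of all features). The minimum mean was still taken over all 6 libraries. A locus that passed it only through heat shock replicates 1 and 2 thus had to differ here, and these counts too describe the tested loci alone. The median log2 fold change of the tested loci was 0.02, with quartiles at -0.60 and 0.88, against 0.45, -0.15 and 0.82 over all features. After scaling by 988 abundant genes the medians were -0.44 and -0.20. For the 363 tested loci within 1 kb of their gene the median was -0.39 as deposited, and for the loci listed in all 6 libraries it was -0.19. The loci at p under 0.05 and higher were short, with a median length of 496 nt, against 1630 nt for all tested loci.

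**Figure D3:**
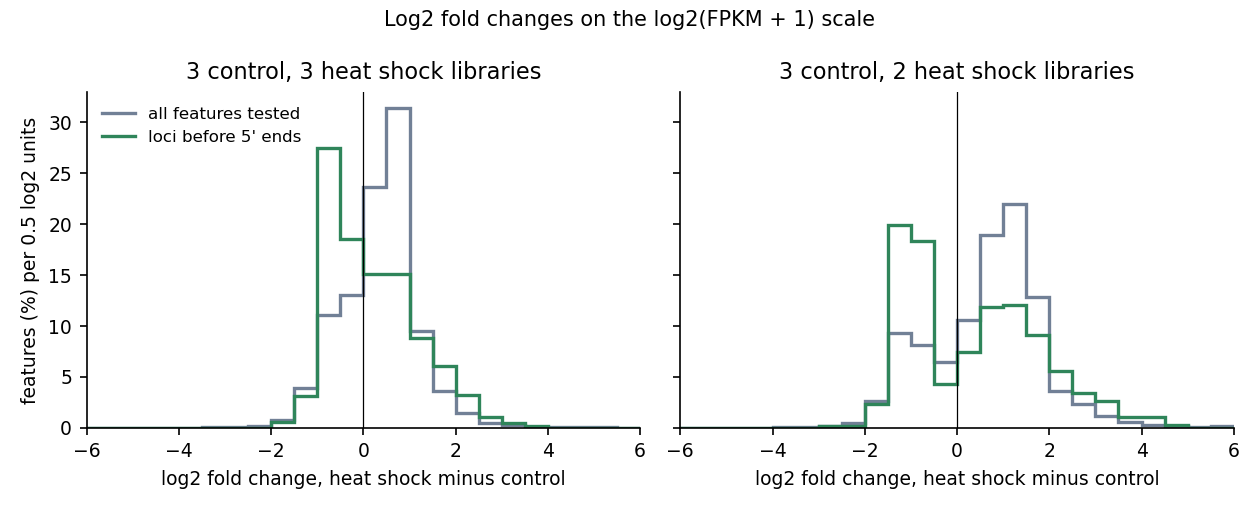
Lines give the percent of features in steps of 0.5 of the log2 fold change, heat shock minus control on the log2(FPKM + 1) scale, for the 647 tested loci before 5′ ends and all 16268 features tested. With all libraries the medians were 0.02 and 0.45, and without heat shock replicate 3 (right) they were 0.32 and 0.84.

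The 4 largest positive changes among loci whose groups did not overlap lay before SLC19A2, WARS2, ECHDC1 and LOC100507173. Before SLC19A2, the gene of a thiamine transporter, a locus without a strand at chr1:169455343-169455788 ended 135 bases from the gene, with 3.99 FPKM in control replicate 1, none listed in the other 2 controls, and 34.7, 29.9 and 7.69 FPKM after heat shock. The log2 fold change was 3.64 ± 0.80 (adjusted p = 0.693 by limma), and 5.87 at a pseudocount of 0.1. SLC19A2 itself was between 0.483 and 2.21 FPKM. Before WARS2, the mitochondrial tryptophanyl-tRNA synthetase, a locus on WARS2-AS1 at chr1:119693706-119694024 had 6.79 FPKM in control replicate 1 alone among the controls and 29.7, 11.8 and 7.65 FPKM after heat shock. The locus before ECHDC1 at chr6:127665683-127666799 was listed at 0 in all controls and had 11.6, 5.12 and 1.28 FPKM after heat shock (adjusted p = 0.693 by limma). Before LOC100507173, at chr6:27655840-27656367, it was 9.50, 0 and 7.87 against 28.7, 37.9 and 12.2 FPKM.

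The largest negative change lay before RPS29, a ribosomal protein gene, where the locus matched RN7SL2, a gene of the 7SL RNA of the signal recognition particle, at 98.6% over 294 bases. It had 13589, 4599 and 12474 FPKM in the control libraries and 3734 FPKM in heat shock replicate 3, and no transcript was listed in heat shock replicates 1 and 2. The authors' pooled values were 2507 for control and 6213 for heat shock, in the opposite direction. Whether RNA of the locus was absent from heat shock replicates 1 and 2 was not tested. The other loci named for a decrease had at most 3.39 FPKM in any library. Before BSG, the gene of basigin, the locus on BSG-AS1 (chr19:566349-570590) had 3.39, 1.68 and 2.16 against 0, 0.762 and 1.18 FPKM, a log2 fold change of -1.09 ± 0.52, while the authors' pooled values, 3.11 for control and 3.83 for heat shock, again had the opposite direction. Before TMEM190 (chr19:55884832-55885790) it was 2.65, 1.89 and 1.81 against 0, 0 and 1.40 FPKM, and before FLYWCH2 (chr16:2914432-2916934) 1.70, 1.76 and 2.07 against 0, 0 and 1.04 FPKM, with log2 fold changes of -1.21 and -1.16. At a pseudocount of 0.1 the changes before BSG, TMEM190 and FLYWCH2 were -2.33, -3.15 and -3.10. The lowest limma adjusted p of these 4 loci was also 0.693. Pooled values that rose beside a negative log2 fold change were also found before CYBRD1, NUS1, SAV1, HOXA2 and PTDSS2.

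**Figure D4:**
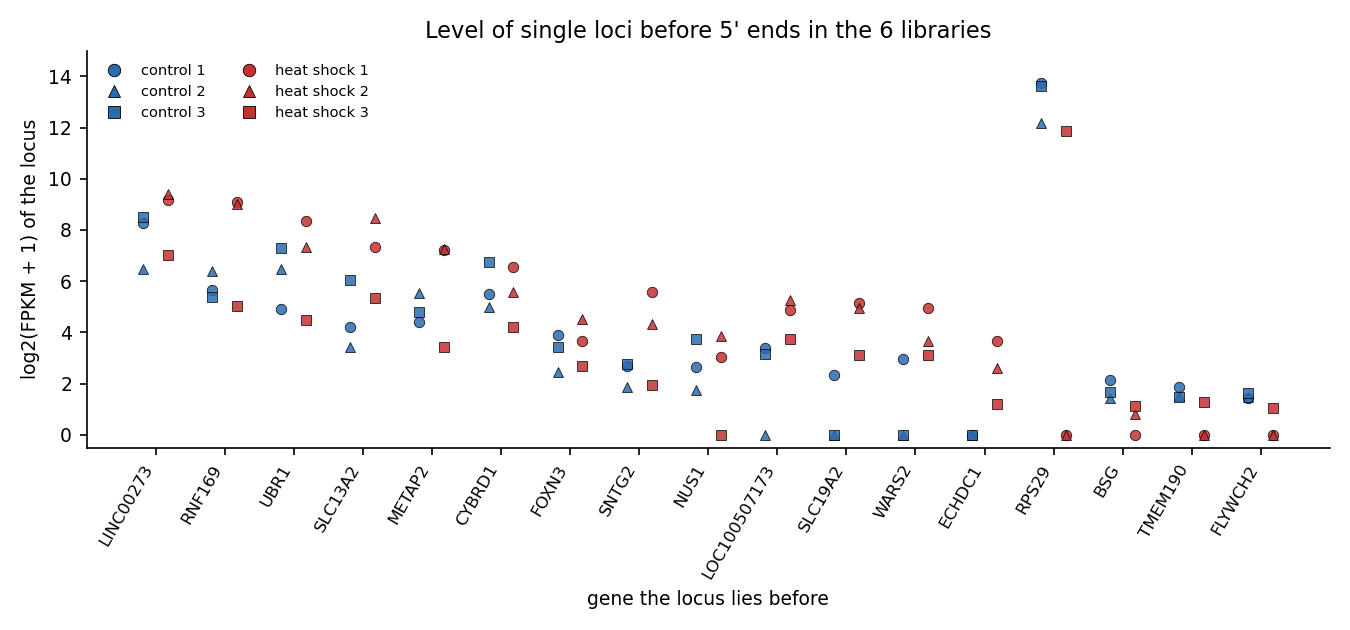
Each symbol is 1 library, with the level of single loci before 5′ ends as log2(FPKM + 1) on the vertical axis and the gene that each locus precedes on the horizontal axis, control in blue and heat shock in red. Heat shock replicate 3 (red squares) lay below the other heat shock libraries at the copies of ribosomal protein genes, and the locus before RPS29 stood at 13589 FPKM in control replicate 1 and at 0 in heat shock replicates 1 and 2.

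A locus can rise with its gene, so each was also taken relative to it, as the difference of the log2(FPKM + 1) values. Of the 647 loci 0 were called higher and 0 lower (0% of 1664 unnamed loci tested in each direction), with 20 higher (3.09%; 3.79% of those tested) and 9 lower (1.39%; 0.781%) at an unadjusted p under 0.05 by limma. Groups did not overlap for 28 loci higher (4.33%; 6.19%) and 29 lower (4.48%; 2.88%). The median change relative to the gene was -0.15. Without heat shock replicate 3, 4 loci were called higher (0.618%; 1.08% of those tested) and 1 lower (0.155%; 0.0601%). Relative to the gene the locus before SLC19A2 was higher by 3.44 ± 0.79 (limma adjusted p = 0.759), and by 5.61 at a pseudocount of 0.1. The locus before MAP3K2, a kinase of the MAP kinase cascade, on MAP3K2-DT at chr2:128146630-128147246, was listed at 0 in all controls and in heat shock replicate 3 but had 20.87 FPKM in replicate 1 and 15.99 in replicate 2, while the gene went from 0.918, 0.617 and 0.818 to 2.22, 2.16 and 0.508 FPKM.

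The decreases relative to the gene stood beside genes with larger values in heat shock replicates 1 and 2. Among loci whose groups did not overlap, the largest lay before RPS29, at -10.1 ± 3.38 (limma adjusted p = 0.759). RPS29 had 3673, 1755 and 4091 against 8833, 9950 and 1922 FPKM. This locus was called lower relative to the gene without heat shock replicate 3 (-14.8) and with transcripts covering 50% of the locus (-10.6). Before RINT1, a gene of vesicle tethering, a divergent spliced locus 14 bases from the gene at chr7:105170345-105172518 had 1.66, 0 and 1.64 FPKM in the control and 1.78, 2.35 and 0 FPKM in the heat shock libraries. RINT1 had 4.21, 2.65 and 4.31 against 36.7, 47.1 and 2.81 FPKM, so that the relative change was -1.90 ± 0.76 (limma adjusted p = 0.759). The locus before PTDSS2, a phosphatidylserine synthase gene, overlapped an exon of the gene itself at chr11:442469-450171 and had 1.26, 1.43 and 1.71 against 0, 0 and 1.64 FPKM, with a relative change of -1.86 ± 0.81 (limma adjusted p = 0.759), and -3.74 at a pseudocount of 0.1.

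Of 24 heat shock protein, heat shock factor, ubiquitin and immediate early genes looked up, 12 had a locus before their 5′ end, 17 loci in all. The chaperone genes had larger values in heat shock replicates 1 and 2, where abundant genes as a set also stood at 2.16 and 2.34 of their typical level. In the controls the abundant genes stood at 0.439 to 0.967. How much of the rise of the chaperone genes was shared with them was not tested. Most of the loci before the chaperone genes were not listed in heat shock replicates 1 and 2. DNAJB1, an HSP40 co-chaperone, had 7.32, 4.84 and 9.18 FPKM in the control and 121, 116 and 34.0 FPKM in the heat shock libraries. The locus before it, 10722 nt long at chr19:14629365-14640086, overlapped a GENCODE exon of DNAJB1 itself. This locus had 1.46, 0.642 and 0.334 FPKM in the control, was listed at 0 in heat shock replicates 1 and 2 and had 0.221 FPKM in replicate 3. HSPA1B, which encodes an inducible HSP70, had 8.63, 6.59 and 9.55 against 86.5, 99.9 and 22.9 FPKM, and the locus 55 bases before it 1.40, 1.42 and 0 against 0, 0 and 0.426 FPKM. At 15 of the 17 loci (88.2%) no transcript was listed in heat shock replicates 1 and 2, near the 88.1% of all intervals. None of the 17 windows held a heat shock element. The share over all windows before 5′ ends was 0.479%, so 17 windows were too few for this absence to tell anything. The windows lay 55 (HSPA1B) to 9260 bases (HSPA4) from the locus of the gene. Whether the promoters of these genes held an element was not tested.

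The exceptions lay before HSPA8 and DNAJA1. HSPA8 encodes the constitutive HSP70, and a divergent spliced transcript lay 162 bases from its locus, at chr11:122933260-122934352. It was listed in all 6 libraries, with 2.96, 6.24 and 7.95 FPKM in the control (5.72 ± 2.53, SD, n = 3) and 6.41, 8.27 and 4.29 FPKM in the heat shock libraries (6.32 ± 1.99). HSPA8 had 93.8, 43.5 and 89.6 against 256, 298 and 58.9 FPKM. The groups overlapped for both, the locus had a log2 fold change of 0.17 ± 0.56, and its change relative to the gene was -1.03 ± 0.83 (limma adjusted p = 0.759). After scaling by abundant genes the change of the locus was -0.57. Before DNAJA1, another HSP40 co-chaperone, the locus 471 bases away at chr9:33023540-33024528 had 1.45 FPKM in heat shock replicate 1, 2.12 in replicate 2 and 0 in the other 4 libraries, and the gene had 44.4, 17.0 and 45.4 against 123, 126 and 32.2 FPKM.

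**Figure D5:**
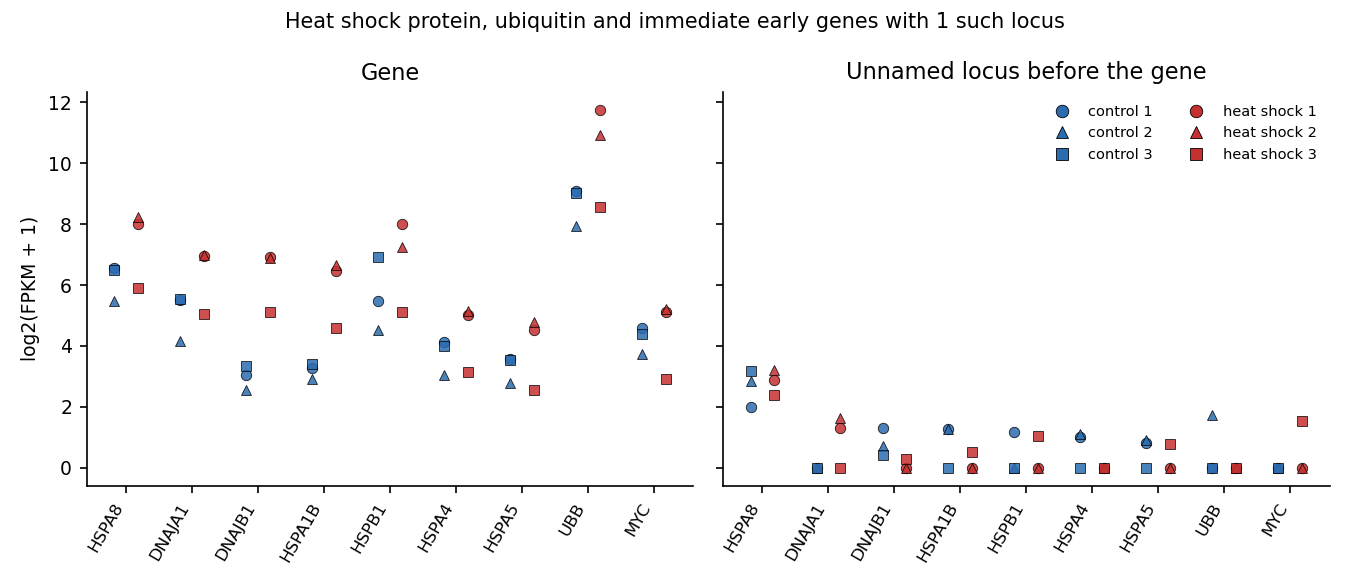
Symbols give log2(FPKM + 1) in each library for heat shock protein, ubiquitin and immediate early genes that had 1 locus before the 5′ end (left) and for that locus (right), control in blue and heat shock in red. In heat shock replicates 1 and 2 DNAJB1 stood at 121 and 116 FPKM, and the locus before it, which overlapped a GENCODE exon of DNAJB1, at 0 in both.

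The other loci of this group were low and scattered. Before HSPB1, HSPA4, HSPA5 and UBB the highest values were 1.28, 1.17, 0.902 and 2.31 FPKM, each in a control library. Before BAG3, a co-chaperone of HSP70, there were 3 loci, of which 1 was listed in control replicate 2 at 2.40 FPKM, 1 in heat shock replicate 3 at 1.97 FPKM and 1 in no library. The 3 loci before FOS and the 2 before EGR1, immediate early genes, reached 2.996 and 3.535 FPKM, and that before MYC had 1.89 FPKM in heat shock replicate 3 and was at 0 elsewhere.

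The nearest loci averaging 5 FPKM or more lay before HOXA2, VDAC1 and SAV1. The locus 34 bases from HOXA2, a homeobox gene, at chr7:27142428-27143046 had 4.97, 3.401 and 5.62 FPKM in the control and 9.74, 7.73 and 0 FPKM after heat shock, while HOXA2 was at most 1.70 FPKM. The locus 56 bases from VDAC1, a channel of the outer mitochondrial membrane, had 2.46, 1.84 and 8.67 against 6.83, 10.95 and 1.997 FPKM, beside a gene at 26.8 to 150 FPKM. The locus 91 bases from SAV1, a scaffold of the Hippo pathway, had 25.8, 9.97 and 10.1 against 27.6, 50.6 and 0 FPKM. At all 3 the groups overlapped, heat shock replicate 3 being at or near the low end.

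Of the genes next to these loci 3628 were tested, with 1 called higher and 0 lower. At an unadjusted p under 0.05, limma gave 30 of them higher (0.827%; 1.51% of all genes tested and 2.7% of all features) and 47 lower (1.30%; 1.01% of all genes tested and 0.897% of all features), and their median log2 fold change was 0.25, against 0.45 for all genes tested. The called gene, named after its values were seen, was SNAR-E, a small non-coding RNA gene with near-identical copies, at 0.0064, 0 and 0 FPKM in the control and 35.9, 67.7 and 28.3 FPKM in the heat shock libraries. Of the 2 loci before it 1 had 3.77 FPKM in heat shock replicate 3 and the other 1.75 FPKM in control replicate 1, and both were at 0 elsewhere. The list of nuclear RNA decay and early termination held 46 genes of the exosome, its adaptors, the cap-binding and Integrator complexes, 3′ end processing and the U1 particle. All 46 were tested, and limma called 0 higher and 0 lower, with 2 higher (4.35%; 2.7% of all features) and 0 lower (0.897% of all features) at an unadjusted p under 0.05. The median log2 fold change was 0.64, against 0.45 over all features, with 39 of 46 positive (84.8%; 70.8% of all features), and after scaling by abundant genes it was -0.12, against -0.20 over all. The 3 highest were SRRT, a partner of the cap-binding complex (26.4, 7.69 and 139 against 47.3, 57.2 and 5.30 FPKM), CPSF3, the endonuclease of 3′ end processing (14.0, 7.54 and 12.9 against 186, 31.2 and 6.30 FPKM), and SNRPA, a U1 protein (30.7, 13.3 and 30.1 against 76.8, 73.4 and 19.2 FPKM).

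The libraries as a whole differed by a factor of 2.03 in depth, judged from the ratio of coverage to FPKM, and the number of reads is unknown. The abundant genes stood at 0.439 to 0.967 of their typical level in the control libraries, and at 2.16, 2.34 and 0.492 in the heat shock libraries. All 6 markers of HEK293 cells (PAX2, NEFL, NEFM, VIM, KRT8 and KRT18) had a mean of at least 1 FPKM, with a summed level of 102 to 273 FPKM in the control and 134 to 1002 FPKM in the heat shock libraries. Of 5 markers of other cell types COL1A1 did, at 3.23 to 4.16 FPKM, and the sum over PTPRC, ALB, HBB, COL1A1 and PECAM1 was 4.49 to 5.28 in the control and 3.62 to 4.36 in the heat shock libraries. At the limits of the rule, the shortest member was 301 nt long, before HCN4, and the longest locus left out 299 nt, before SRRM1. The farthest member lay 10000 bases before RSPO1 and the nearest locus left out 10001 bases before METTL16. The lowest pooled value of a member was 1.00003, before TRAPPC8, and the highest left out was 0.999996, before ZNF286A.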

How the data were processed

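RNA-seq libraries of 3 control and 3 heat shocked HEK293 samples were used, grouped by their labels. Before deposit the authors used FastQC 0.10.1 and Trimmomatic 0.3.0 on the reads, TopHat2 for alignment to hg19, and Cufflinks 2.0.2, guided by known hg19 transcripts, for the assembly of every library. The deposited values are FPKM per transcript and library, with no normalization between libraries stated, and a merged table with 1 pooled FPKM per group and locus from cuffdiff, whose version is not given in the sources used here. The 2 pooled columns were used to choose loci and are the authors' values. That table also holds the authors' own fold changes and p-values, which were not used. How the library kit and the assembly treated strand is not given in the sources used here.

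The 43536 annotated transcripts of the assemblies, 41997 of them placed by name, gave the strands and ends of named loci. The level of a locus in a library was the sum, over overlapping transcripts, of FPKM times the overlapping exon bases, divided by the locus length, and 0 means that no transcript was listed. Intervals shared by several rows were counted once. Genes and unnamed loci that averaged 1 FPKM or more were fitted in R 4.3.3 with limma 3.58.1, taking log2(FPKM + 1) as response, which understates changes of low features, by lmFit and eBayes with a trend and without a block, and adjusted by the Benjamini-Hochberg method over all features. With 3 against 3 libraries an exact permutation test of 1 value cannot go below p = 0.1. On simulated data with the spread of these 6 libraries and 16268 features, changes of 8-fold and 32-fold on the log2(FPKM + 1) scale were added. The fit recovered 19% and 42% of them, with 4 false calls. With the spread after scaling by abundant genes it recovered 38% and 59%, with 2 false calls. Simulated features varied independently and decreases could pass below 0 FPKM, so these shares are only a rough guide. Sequence came from GRCh37, and matches of at least 95% over 100 bases from BLAST 2.17.0 against GENCODE transcripts. Only matches to protein-coding, ribosomal RNA and small RNA transcripts of genes elsewhere were kept, and the longest loci were not searched. Tables were made with Python 3.11.15 and pandas 2.3.3.

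The sequences of some loci are not reported here. The loci, the lists and the tests were chosen with earlier results of these data known. The loci named were the 6 highest listed in all libraries, the 4 (relative to the gene, 3) with the largest change in each direction whose groups did not overlap, the 4 highest with a transcript spliced outside annotated genes, those before 24 heat shock and immediate early genes, the 3 nearest to a gene at a mean of at least 5 FPKM, and those at the limits of the rule. Alternatives changed the pseudocount, scaling, minimum FPKM, value of a locus, selection, block and libraries. The value per exon base, a term for the 3 libraries with most transcripts without a strand, and the loci listed in all 6 libraries were added after seeing the data.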

Additional observations from a re-analysis of the deposited data

How the results depend on the processing

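The absence of called loci did not depend on the pseudocount, the scaling, the added term for transcripts without a strand or the value of a locus, and 0 loci were called in either direction under these, with 1 lower relative to the gene for transcripts covering 50% of the locus. It depended on the minimum (1 higher and 1 lower at a mean of 5 FPKM, and 1 lower relative to the gene with none), on the correction (34 higher and 3 lower, and 20 and 9 relative to the gene, at an unadjusted p with more than 2-fold change) and on heat shock replicate 3. Leaving out 1 library at a time gave 0 to 39 loci higher and 0 to 7 lower, and 0 to 4 and 0 to 1 relative to the gene; all calls came without heat shock replicate 3. The same range was 0 to 287 and 0 to 48 for all features, 0 to 12 and 0 to 15 for neighbouring genes, and 0 to 1 higher for the decay list. A fit with the replicate number as a block gave 9 loci higher and 1 lower, and 117 and 16 of all features; the labels do not pair the libraries, and libraries with the same number correlated at 0.05, -0.23 and -0.30 in their deviations, so that they share only a number.

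For all features an unadjusted p with the fold limit gave 437 higher and 144 lower; the counts were 1 higher with median-of-ratios factors or the same total FPKM, 0 with the common factor, without a trend or with the term for transcripts without a strand, 4 higher and 1 lower with no minimum, 17 and 1 at a mean of 5 FPKM, and 3 and 1 at a pseudocount of 0.1. For neighbouring genes it gave 29 and 46, and the counts were 2 higher at a mean of 5 FPKM, and 0 with the common factor, without a trend or with the term. The median log2 fold change of the loci, 0.02, moved to -0.39 within 1 kb, -0.46 for loci longer than 1000 nt, -0.44 with the common factor, -0.36 at the same total FPKM, -0.41 with no minimum, 0.93 at a mean of 5 FPKM and -0.91 for the plain sum of transcripts. Relative to the gene, -0.15 moved to -0.41 within 1 kb, -0.46 for loci longer than 1000 nt, 0.67 at a mean of 5 FPKM, -0.88 for the plain sum and 0.17 for transcripts covering 50% of the locus. The number of loci was 2880 within 1 kb, 2406 with both pooled values above 1 and 4037 above 1000 nt.

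Of 497 values of single loci under alternatives, 452 kept their direction and call, 12 became called and 33 changed sign. With the common factor the sign turned before LINC00273 (-0.11), FOXN3 (-0.42), UBR1 (-0.39), HSPA8 (-0.57) and VDAC1 (-0.21), at the same total FPKM before FOXN3 (-0.27), UBR1 (-0.22), HSPA8 (-0.44) and VDAC1 (-0.092), and with median-of-ratios factors before FOXN3 (-0.017) and HSPA8 (-0.21). With transcripts covering 50% of the locus it turned before RNF169 (-2.10), UBR1 (-0.18), SLC13A2 (-2.77), SNTG2 (-1.04) and VDAC1 (-0.82), with the plain sum before HOXA2 (0.039), and with the term for transcripts without a strand before UBR1 (-0.34), HSPA8 (-0.064) and VDAC1 (-0.032). Leaving out 1 library at a time gave ranges across 0 before FOXN3 (-0.077 to 0.84), CYBRD1 (-0.85 to 0.31), UBR1 (-0.34 to 1.61), NUS1 (-1.19 to 0.75), SAV1 (-1.47 to 1.37), HSPA8 (-0.17 to 0.41) and HOXA2 (-0.92 to 0.80). The causes were not tested.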
